A study of Mus musculus with 16 samples.

Results

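Transcripts of 9 TRP channel genes, *Trpv1*, *Trpv2*, *Trpv4*, *Trpa1*, *Trpm2*, *Trpm3*, *Trpm7*, *Trpm8* and *Trpc1*, were followed in single dorsal root ganglion (DRG) neurons of the mouse at embryonic day (e) 15.5 and postnatal day (p) 1. The 9 genes were taken by name from a table of 49671 Ensembl genes. They were read in wells that held at least 10000 unique molecular identifiers (UMIs, each marking 1 captured transcript) and at least 100 CPM of *Avil* plus *Isl1*, markers of sensory neurons. Levels are in CPM, a gene's share of the summed UMIs scaled to 1000000. Of 1536 wells, 1240 reached that depth and 799 of these also passed the neuron gate.

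At e15.5, 10 libraries of 96 wells came from embryos of the PvtdTom line, a BAC transgene in which the parvalbumin promoter drives tdTomato, and cells were isolated by fluorescence-activated sorting. At p1, 6 libraries of 96 wells came from Trpv1Cre; PvFlp; Ai65 and PvCre; Ai14 pups, which the labels name together for every library. By the study's methods, PvCre; Ai14 gave 96 thoracic and 96 lumbar cells. The Trpv1Cre-Basbaum and Trpv1Cre-Hoon lines, each with PvFlp; Ai65, gave as many again per line, so most p1 wells were of the *Trpv1* lineage. Ai65 gives tdTomato only where Cre and Flp have both acted, so the Trpv1Cre; PvFlp; Ai65 cells had passed through a *Trpv1*-driven recombination, whereas PvCre; Ai14 cells needed Pv-driven Cre alone. The study's methods give manual picking of p1 cells under a microscope and no treatment at either age, whereas the labels give sorting for the p1 libraries too. Age and mouse line, and the way of isolation if it differed, cannot be told apart. Cells came from thoracic and from lumbar ganglia at both ages, and the labels do not say which library came from which level. Nothing in the labels ties a library to an animal, so p-values measure only the spread between libraries, which may be technical.

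Library totals ran from 3701900 to 9299431 UMIs at e15.5 and from 386517 to 8814472 at p1, and p1 library 3 held the fewest UMIs of proprioceptor-like wells, 176499. Wells were named from marker sums. A proprioceptor-like well had at least 1000 CPM of *Pvalb*, *Runx3*, *Etv1* and *Ntrk3* together, with few nociceptor or mechanoreceptor transcripts, and 329 wells at e15.5 (8 to 70 per library) and 350 at p1 (11 to 82 per library) met this rule. A further 28 nociceptor-like wells, 22 mechanoreceptor-like wells, 6 mixed wells over both the proprioceptor and the nociceptor threshold, and 49 unnamed wells passed the gate at e15.5, against 1, 7, 5 and 2 at p1. The thresholds were set with values in view, and 17 e15.5 and 10 p1 wells had proprioceptor sums within 250 CPM of that limit. The labels call every sample proprioceptive sensory neurons, yet 437 of the 871 deep e15.5 wells fell below the neuron gate. Those wells held 27683 CPM of the connective tissue markers *Col1a1*, *Col1a2*, *Col3a1* and *Dcn* (14568 to 33424 over libraries), all 4 of which were found, against 134 CPM in proprioceptor-like wells, and they served as the class that is not expected to use neuronal channels.

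TRP channels are cation channels that open to heat, cold, chemicals, lipids or stretch and let calcium and sodium into the cell. In sensory ganglia the family is best known from nociceptors and thermoreceptors, where TRPV1 answers to heat and capsaicin, TRPA1 to irritants and TRPM8 to cold and menthol, and where TRPM3 adds to heat sensing. Proprioceptors, which report muscle stretch and tension, are not usually counted among the neurons that use TRPV1. Other members act more widely: TRPM7 joins a channel to a kinase and carries magnesium, TRPM2 opens to ADP-ribose and oxidative stress, TRPC1 takes part in receptor- and store-operated calcium entry, and TRPV2 and TRPV4 have been tied to growth, stretch and osmotic cues.

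*Trpv1* (ENSMUSG00000005952) is a protein-coding gene at chr11:73234292-73261242 on the plus strand of GRCm38, and *Trpm3* (ENSMUSG00000052387) spans chr19:22139046-22995410 on the plus strand. The results turn most on these members, so the 250 bases upstream of a RefSeq start are shown for each (GRCm38.p6, plus strand, 5′ to 3′, chr11:73233899-73234148 and chr19:22447958-22448207). Capitals mark the core recognised by Runx factors, searched as TGTGGT and, for the other strand, ACCACA, since *Runx3* marks proprioceptors and *Runx1* nociceptors. The core begins at position -50 in the *Trpv1* promoter and at position -166 in the *Trpm3* promoter shown, counted back from the start. This *Trpm3* promoter lies within the gene and was shown because it holds the core. The other *Trpm3* promoter, chr19:22138796-22139045, directly before the gene's first base, held 0 cores.
Trpv1: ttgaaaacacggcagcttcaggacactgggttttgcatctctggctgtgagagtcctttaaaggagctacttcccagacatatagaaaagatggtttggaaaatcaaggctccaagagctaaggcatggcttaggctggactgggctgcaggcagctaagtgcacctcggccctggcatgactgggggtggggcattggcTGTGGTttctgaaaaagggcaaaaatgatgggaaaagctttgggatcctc
Trpm3: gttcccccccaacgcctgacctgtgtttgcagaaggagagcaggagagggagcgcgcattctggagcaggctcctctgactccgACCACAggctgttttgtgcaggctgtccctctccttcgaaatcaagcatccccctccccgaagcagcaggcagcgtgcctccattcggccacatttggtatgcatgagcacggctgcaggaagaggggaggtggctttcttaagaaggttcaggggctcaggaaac
RefSeq listed promoters for 8 of the 9 members, 11 in all, and 2 of these 11 held the core. Of all 32851 mouse promoters of this length, 14.0% held it, so a match is a description of the letters and not a site.

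*Trpv1* was found in proprioceptor-like wells at e15.5 in every library, at a low level. The 10 libraries held between 1 and 43 *Trpv1* UMIs, 91 in all, or 0.459 to 5.26 CPM (median 1.48, mean 2.21 ± 1.79, SD). Libraries 10, 7 and 1 were highest at 5.26, 4.67 and 3.77 CPM, and library 10 alone gave 43 of the 91 UMIs.

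Nociceptor-like wells held far more *Trpv1*. The 4 libraries with at least 3 such wells read 105, 51.3, 44.6 and 154 CPM (mean 88.7 ± 51.4, SD, n = 4), and no value overlapped those of proprioceptor-like wells. The difference was 4.97 ± 0.45 log2 units (SE, edgeR quasi-likelihood test, Benjamini-Hochberg adjusted p = 3.13e-08), and the call was kept under all 21 alternatives. *Trpv1* was the only one of the 8 members tested that passed in this comparison, in which 15.6% of 19808 genes did. Nociceptor-like wells are defined by 5 markers, *Scn10a* and *Calca* among them, and *Trpv1* took no part in naming them.

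In the order of their means, the classes read 88.7 CPM in nociceptor-like wells, 2.21 in proprioceptor-like wells at e15.5, 1.45 in mechanoreceptor-like wells, 0.757 in wells below the gate and 0.284 in proprioceptor-like wells at p1. The libraries of neighbours in this order overlapped, except between nociceptor-like wells and the class after them. Mechanoreceptor-like wells held 3 *Trpv1* UMIs, 2 of them in library 1, and the other 3 of 5 libraries none. Wells below the gate held 12 UMIs, and their 10 libraries read 0 to 2.75 CPM (median 0.327), overlapping with proprioceptor-like wells, from which they differed by -1.39 log2 units (adjusted p = 0.0438). That call was lost in 14 of 19 alternatives, with adjusted p from 0.0172 to 0.178.

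At p1 the *Trpv1* count of proprioceptor-like wells was 8 UMIs in 26637261. The 6 libraries read 0.116, 0.452, 0, 0.647, 0.490 and 0 CPM (mean 0.284 ± 0.280, SD), of which 4 lay below the lowest e15.5 library and 2 overlapped with the e15.5 range. The level fell by 2.66 ± 0.65 on the log2 scale from e15.5 to p1 (SE, edgeR, adjusted p = 0.00115), and it was 8.25-fold lower in the pooled wells. Fewer *Trpv1* cells among those taken and less *Trpv1* RNA per cell cannot be told apart in such sums. The call was lost when every well was thinned to 10000 UMIs (-1.28, adjusted p = 0.261).

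**Figure D1:**
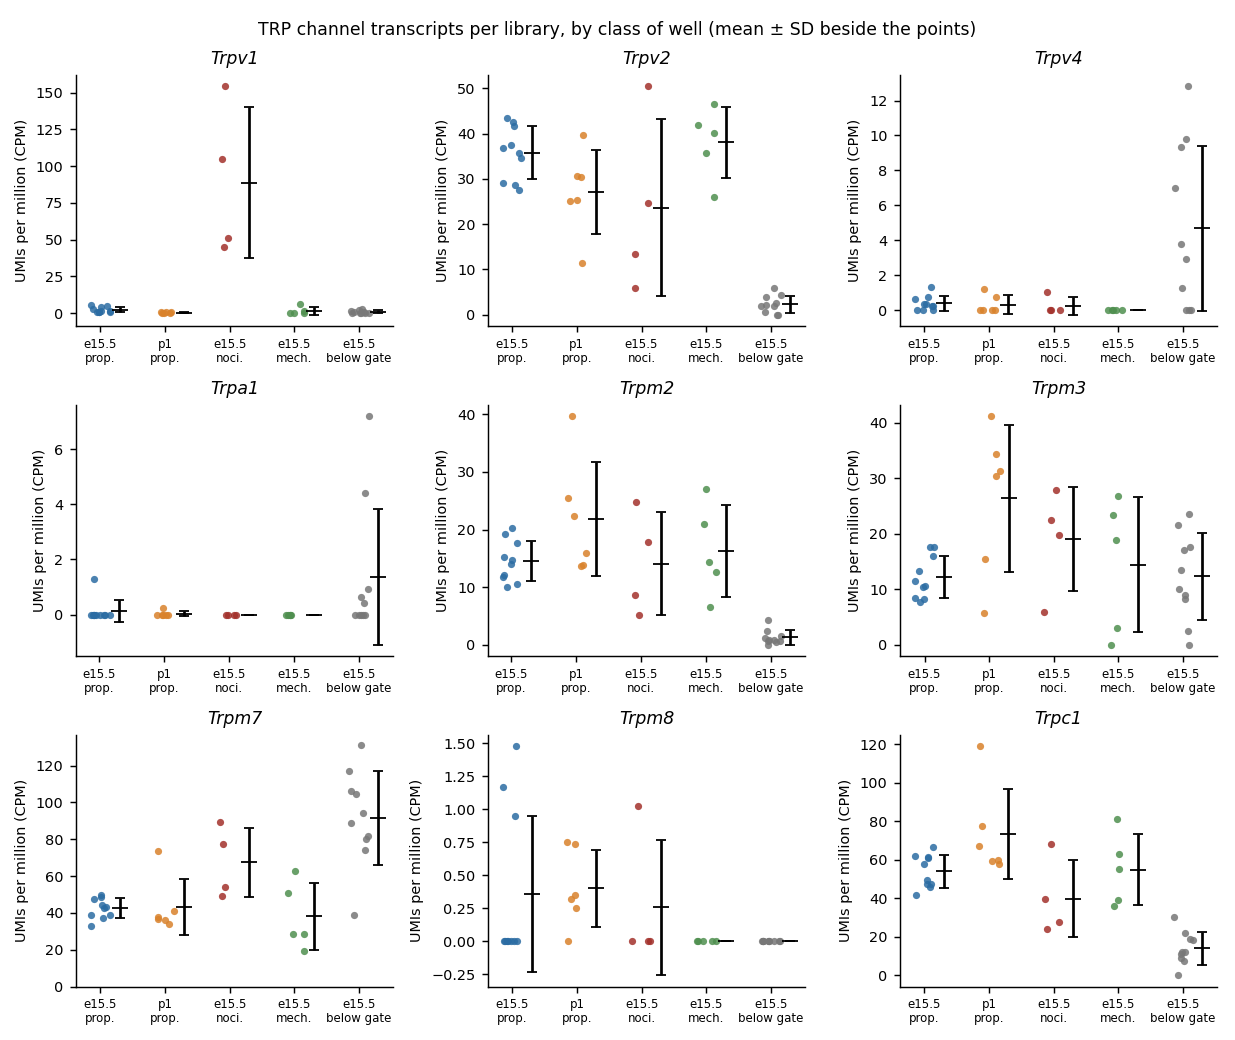
TRP channel transcripts in CPM (linear axes that differ between panels) for each of the 9 genes. Each point is 1 library with at least 3 wells of the class, and the bar beside it is the mean ± SD; prop., noci. and mech. stand for proprioceptor-like, nociceptor-like and mechanoreceptor-like wells. *Trpv1* lies between 44.6 and 154 CPM in nociceptor-like wells and at or under 6.003 CPM in the other classes, and *Trpv2*, *Trpm2* and *Trpc1* are low in wells below the gate.

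A share of wells with a UMI depends on depth, and the median proprioceptor-like well held 111401 UMIs at e15.5 and 55768 at p1. *Trpv1* was found in 37 of 329 e15.5 wells (11.2%, exact 95% binomial interval 8.04 to 15.2%, counting error only) and in 7 of 350 p1 wells (2%, 0.808 to 4.08%). The wells below the gate, which should lack it, gave 2.52% at a median depth of 26755 UMIs. The p1 share was no higher than this as counted, in deeper wells, and was the higher of these shares once thinned, on few wells. Thinned to 10000 UMIs, the shares were 1.82% at e15.5, 0.571% at p1, 0.229% below the gate and 53.6% in nociceptor-like wells, which had been 75% as counted.

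Within e15.5 proprioceptor-like wells *Trpv1* was uneven. No UMI was found in 292 wells and 1 UMI in 25 wells, while 5 wells held 2 to 4 and 7 wells held 5 or more, up to 17 in a well. At p1 no well held more than 2.

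**Figure D2:**
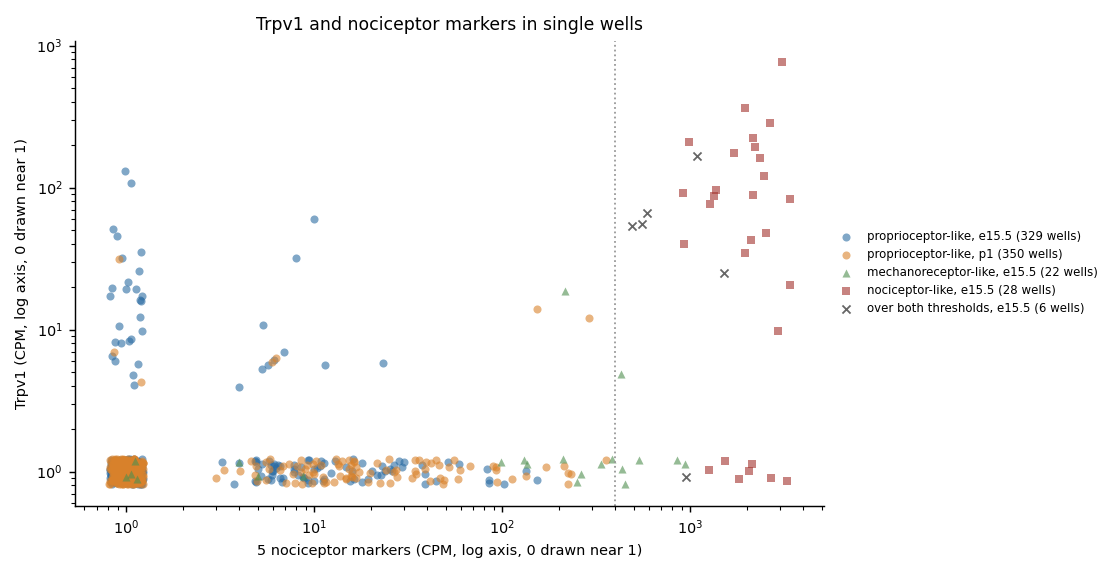
*Trpv1* (y axis) against the sum of the 5 nociceptor markers (x axis) in single wells, both in CPM on log axes, with wells at 0 drawn with a little scatter around 1. The dotted line is the nociceptor threshold of 400 CPM. Proprioceptor-like wells lie to the left of the line and nociceptor-like wells to the right of it by the rule that named them. Of the 37 e15.5 proprioceptor-like wells with *Trpv1*, 27 are at 0 on the x axis, and 21 of 28 nociceptor-like wells hold *Trpv1*.

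Nociceptor markers in the wells with *Trpv1* depend on how the wells were named. A proprioceptor-like well has less than 400 CPM of the 5 nociceptor markers by rule, and the 6 mixed wells at e15.5 that exceeded this limit held 96 *Trpv1* UMIs, more than the 91 of all 329 proprioceptor-like wells. Under the limit, the 5 markers summed to 2.86 CPM in the 37 wells with *Trpv1* and 4.24 CPM in the 292 wells without, values that the rule itself keeps low, and none of the 5 was found in 27 of the 37. With mixed wells included, a choice made after the values were seen, the sums were 213 CPM in 42 wells with *Trpv1* and 9.93 CPM in 293 wells without. Over 8 libraries that difference was 147 ± 245 CPM (SD), lower in wells with *Trpv1* in 2 of them (exact two-sided sign-flip permutation test, p = 0.102).

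*Tac1*, which encodes the neuropeptide precursor of substance P, took no part in naming the wells. It was found in 77.2% of e15.5 proprioceptor-like wells, at 105 CPM. The list of 6 markers with *Tac1* summed to 57.4 CPM in proprioceptor-like wells with *Trpv1* and 117 CPM in wells without, almost all of it *Tac1*. Over the 8 libraries with at least 2 wells of each kind the mean difference was -58.8 ± 70.4 CPM (SD), lower in 7 of 8 libraries (exact two-sided sign-flip permutation test, p = 0.0391, where 0.00781 is the smallest possible). Leaving out any of libraries 2, 3, 5, 7 or 8 gave differences of -60.6 to -43.4 CPM and an exact p of 0.0781. With mixed wells included the difference turned to 109 ± 245 CPM (exact p = 0.258). For the 12 wells with at least 2 *Trpv1* UMIs it was -14.6 CPM over 3 libraries (exact p = 1, smallest possible 0.25).

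At p1 the sums ran the other way. The 7 proprioceptor-like wells with *Trpv1* held 123 CPM of the 6 markers and 50.01 CPM of the 5 without *Tac1*, against 75.5 and 8.02 CPM in the 343 wells without. Only 2 libraries could be compared there and the smallest exact p is 0.5. The 7 wells were also deeper (median 143801 against 55049 UMIs) and held a median of 230 CPM of glial markers against 33.3, whose part in the result was not tested.

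*Tox* and *Gabrg1* are the study's markers of proprioceptors that supply back and hindlimb muscles. They were chosen in the study on the p1 libraries, so at p1 a difference between the types is not independent evidence of its direction. Most Trpv1Cre; PvFlp; Ai65 cells fell in the p1 cluster that *Tox* marks. From these same e15.5 libraries the study reported *Trpv1* enriched in a mainly thoracic cluster that also expressed *Tox*. The e15.5 *Trpv1* difference between the types is therefore not independent of that report. Apart from these libraries, the study found *Trpv1* by in situ hybridization in a small share of e15.5 proprioceptors of thoracic and lumbar ganglia. It also traced cells of the *Trpv1* lineage to back but not abdominal muscles. A well was called positive at 25 CPM. At e15.5, 120 wells were *Tox*-only, 35 *Gabrg1*-only, 8 had both and 166 neither. *Trpv1* gave 69 UMIs in *Tox*-only wells, or 5.59 CPM, and none among 3831490 UMIs in *Gabrg1*-only wells.

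*Tox*-only wells of the 10 libraries read 11.7, 2.09, 6.05, 1.90, 0.987, 0, 12.1, 0.678, 3.05 and 18.5 CPM of *Trpv1*, and the 4 libraries with at least 3 *Gabrg1*-only wells all read 0. Against the limit that 3 counts over the group allow, 0.783 CPM, the pooled *Tox*-only level was 7.14-fold higher. This bound covers counting error of the pooled 0 alone and not the spread between *Tox*-only libraries. Libraries 6 and 8, at 0 and 0.678 CPM, lay below the limit. The *Gabrg1*-only 0 of library 7 rests on 167193 UMIs, too few to separate the types within that library. Library 10 gave 37 of the 69 UMIs, and without it the *Tox*-only level was 3.09 CPM and the bound 3.08-fold. *Gabrg1*-only sums come from libraries 7 to 10 and *Tox*-only sums from all 10, and the ganglion level of each library is not given, so its part in these differences was not tested. In the main fit across all genes, which ignores that types share libraries, the difference missed the threshold (edgeR, adjusted p = 0.186). It passed with the library as a block, which pairs the types within a library (edgeR, adjusted p = 0.00106), and with DESeq2 without a block (adjusted p = 0.0297). *Trpv1* reached the minimum of 10 UMIs only through the *Tox*-only wells, so these calls are no independent support for a difference. Of all 37 wells with a *Trpv1* UMI, 21 were *Tox*-only, 16 had neither marker and 0 were *Gabrg1*-only. Of the 12 wells with at least 2 *Trpv1* UMIs, 10 were *Tox*-only, 2 had neither marker and 0 were *Gabrg1*-only. A *Trpv1* UMI was found in 21 of 120 *Tox*-only wells (17.5%, exact interval 11.2 to 25.5%) and in 0 of 35 *Gabrg1*-only wells, at median depths of 105936 and 119236 UMIs. The 0 allows a share of up to 8.57% of wells with a UMI by counting error alone, which is no limit on wells that express the gene, and wells of 1 library are not independent. At p1 each type held 3 *Trpv1* UMIs.

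*Trpm3* ran the other way between the types at e15.5. The 4 *Gabrg1*-only sums read 5.98, 23.2, 32.0 and 26.0 CPM, and the 10 *Tox*-only sums read from 3.51 to 24.7 CPM, so 3 of the 4 *Gabrg1*-only libraries lay above 9 of the 10 *Tox*-only ones. The *Tox*-only level was lower by -1.52 ± 0.34 log2 units (SE, edgeR, adjusted p = 0.00622), and *Trpm3* was the only member of 7 tested that passed, in a comparison where 3.24% of 16988 genes did and, with the library as a block, 3.84%. The low *Gabrg1*-only value came from library 7, with 5 wells and 1 *Trpm3* UMI. The call was lost without library 9, without library 10 and after thinning, where the adjusted p reached 0.524.

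The same contrast at p1 separated no member. *Trpm3* read 33.3 CPM in 82 *Gabrg1*-only wells and 27.4 CPM in 123 *Tox*-only wells, a difference of -0.17 ± 0.29 log2 units. None of the 6 members tested passed with edgeR, where 1.02% of 18198 genes did; 1 of them, *Trpm2* at -0.86 ± 0.30, had an unadjusted p under 0.05 (adjusted p = 0.211), and DESeq2 called 0. The change of the contrast with age was tested as an interaction, in which 0.242% of 19866 genes passed and none of 8 members. *Trpm3* came nearest among them at 1.36 ± 0.45 log2 units (unadjusted p = 0.00395, adjusted p = 0.311), so a difference between the ages was not shown. Members too rare for the fit were counted: *Trpm8* gave 8 UMIs in e15.5 *Gabrg1*-only wells, all 8 in library 9, and 1 in *Tox*-only wells. *Trpv4* gave 7 UMIs in p1 *Gabrg1*-only wells, 6 of them in library 2, and 0 in *Tox*-only wells.

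**Figure D3:**
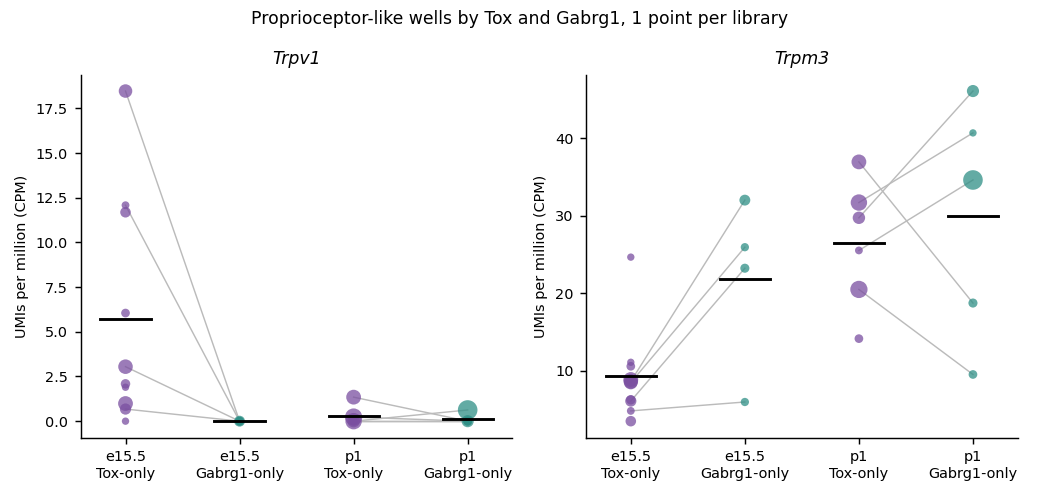
*Trpv1* (left) and *Trpm3* (right) in CPM for *Tox*-only and *Gabrg1*-only proprioceptor-like wells at each age. Each point is 1 library with at least 3 such wells, larger where it holds more wells, grey lines join the types of 1 library and bars are means over libraries. At e15.5 *Trpv1* is 0 in all 4 *Gabrg1*-only libraries and reaches 18.5 CPM in *Tox*-only wells, while *Trpm3* reads 5.98 to 32.0 CPM in *Gabrg1*-only wells.

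Between the ages *Trpm3* was the member that rose most clearly in proprioceptor-like wells. The e15.5 libraries read 7.81 to 17.6 CPM (median 11.0) and the p1 libraries 15.4, 31.3, 5.67, 30.4, 41.2 and 34.4. Library 3, the shallowest, was the lowest of the p1 values with a single UMI. Of the other 5 p1 libraries 4 lay above all e15.5 values, and library 1 lay within their range. The rise was 1.42 ± 0.22 log2 units (SE, edgeR, adjusted p = 1.03e-05) and it passed in all 27 alternatives. Thinned to 10000 UMIs, *Trpm3* was found in 11.2% of e15.5 wells (exact interval 8.04 to 15.2%) and in 29.7% of p1 wells (24.97 to 34.8%). Among *Tox*-only wells the pooled level was 8.58 CPM at e15.5 and 27.4 CPM at p1, and among *Gabrg1*-only wells 27.9 and 33.3 CPM.

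Of the 8 members tested between the ages, *Trpm2*, *Trpm3* and *Trpc1* rose, *Trpv1* fell and 4 did not pass, in a comparison where 51.2% of 21621 genes passed, 25.8% higher and 25.4% lower at p1. *Trpc1* (ENSMUSG00000032839, chr9:95705082-95750375) read 41.8 to 66.6 CPM at e15.5 (median 53.6) and 57.6 to 119 at p1 (median 63.4). The groups overlapped, and the rise of 0.44 ± 0.13 log2 units (SE, edgeR, adjusted p = 0.0074) passed in all 27 alternatives. *Trpm2* (ENSMUSG00000009292, chr10:77907722-77970563) read 10.1 to 20.2 CPM at e15.5 (median 14.4) and 13.7 to 39.7 at p1 (median 19.1). Its rise was 0.55 ± 0.19 log2 units (adjusted p = 0.0163), and the call was lost without p1 library 2, without p1 library 5, after thinning and with the library number as a block (highest adjusted p 0.156).

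*Trpv2* and *Trpm7* gave no difference with age that passed the test. *Trpv2* (ENSMUSG00000018507, chr11:62574486-62600515) read 27.6 to 43.6 CPM at e15.5 (median 36.3) and 11.3 to 39.7 at p1 (median 27.9), -0.15 ± 0.14 log2 units (adjusted p = 0.397). *Trpm7* (ENSMUSG00000027365, chr2:126791565-126876230) averaged 42.5 ± 5.45 CPM at e15.5 and 43.2 ± 15.1 at p1 (SD), a difference of -0.0030 ± 0.12 log2 units with overlapping groups. The highest p1 values of *Trpm7*, *Trpc1* and *Trpm2*, 73.7, 119 and 39.7 CPM, all came from library 3, on 13, 21 and 7 UMIs. The remaining members were near the limit of counting: *Trpv4* (chr5:114622152-114658421) gave 18 UMIs at e15.5 and 11 at p1, *Trpm8* (chr1:88277661-88389293) 18 and 13, and *Trpa1* (chr1:14872648-14918862), which was too rare for the fit, 2 and 1.

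**Figure D4:**
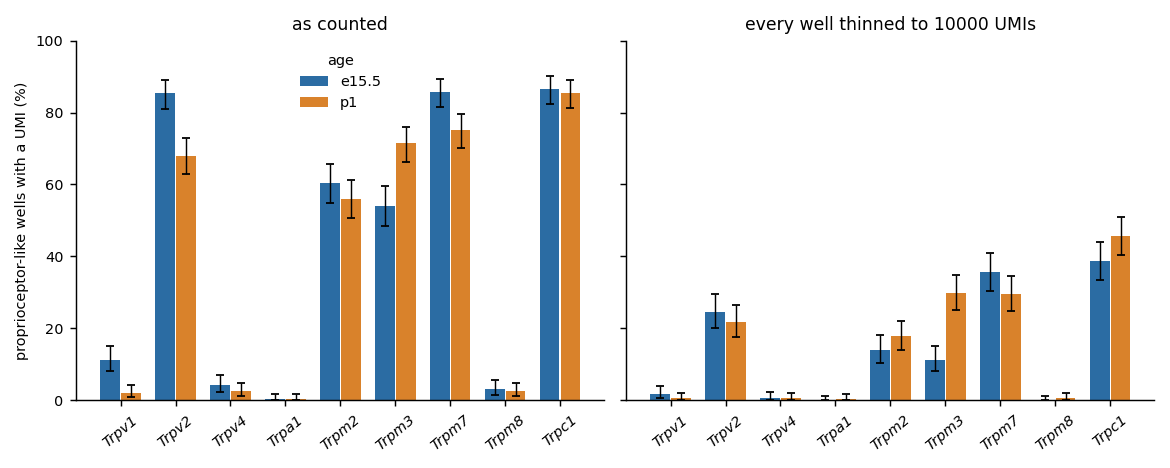
Share of proprioceptor-like wells with at least 1 UMI of each gene at e15.5 (329 wells) and p1 (350 wells), as counted (left) and with every well thinned to 10000 UMIs (right). Bars start at 0 and error bars are exact 95% binomial intervals over wells. *Trpm3* rises from 11.2% to 29.7% in thinned wells, while *Trpv1* is at or under 1.82% in them.

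Among the more widely used members no difference between the neuron classes passed the test. In nociceptor-like wells *Trpv2* read 5.94 to 50.5 CPM over 4 libraries and *Trpc1* 23.8 to 68.0, both lower than in proprioceptor-like wells by -0.62 ± 0.29 and -0.53 ± 0.25 log2 units (edgeR, adjusted p = 0.151 and 0.156). Library 1 held the highest of these values, and without it both members passed. *Trpm3* read 19.1 ± 9.36 CPM in nociceptor-like wells (SD, 4 libraries), 0.71 ± 0.36 log2 units above proprioceptor-like wells (adjusted p = 0.205), and *Trpm7* 67.4 ± 19.0 CPM. In this comparison 1153 of the 3098 called genes were higher in nociceptor-like wells, against 1564 of 3069 with DESeq2 size factors, which moved the median of all genes from -0.10 to 0.03 log2 units; *Trpv1* was called either way and no other member was.

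In mechanoreceptor-like wells 0 of 8 members passed with edgeR, in a comparison where 12.1% of 19808 genes did (988 higher of 2397 called, 1245 of 2384 with DESeq2 size factors). None had an unadjusted p under 0.05, and DESeq2 called 0. *Trpm3* was spread widely there, at 0, 3.001, 18.9, 23.4 and 26.8 CPM. In the 14 wells with more *Ret* than *Ntrk2*, *Trpm3* gave 53 UMIs or 25.003 CPM and was found in 11 wells. In the other 8 wells it gave 3 UMIs or 2.42 CPM, all in 1 well; this split was looked at after the values were seen and has no test.

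**Figure D5:**
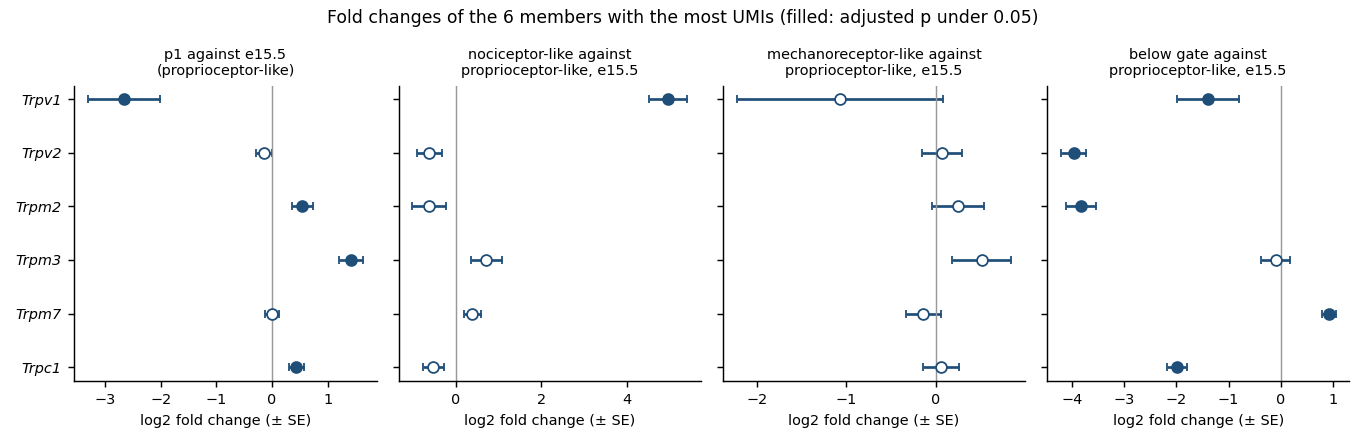
Log2 fold changes (± SE, edgeR) of the 6 members with the most UMIs in 4 comparisons, with filled points where the adjusted p is under 0.05. *Trpv1* is at -2.66 between the ages and at 4.97 in nociceptor-like wells, and the scale of the x axis differs between panels.

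*Trpv2*, *Trpm2* and *Trpc1* were lower, and *Trpm7*, *Trpv4* and *Trpa1* higher, in the wells below the gate than in proprioceptor-like wells, a comparison that was added after the values were seen. *Trpa1* met the minimum count for testing only through the wells below the gate. With *Trpa1* and with *Trpv1*, whose call was lost in most alternatives, 7 of 9 members tested passed, 3 higher and 4 lower. This is near the share over all genes, since 64.6% of 21133 passed, 30.8% higher and 33.7% lower. *Trpv2* read 0 to 5.88 CPM over the 10 libraries below the gate against 27.6 to 43.6 in proprioceptor-like wells, with no overlap, and was lower by -3.97 ± 0.25 log2 units (edgeR, adjusted p = 1.89e-13). *Trpm2* (0 to 4.32 CPM, -3.84 ± 0.29) and *Trpc1* (0 to 30.5 CPM, -1.99 ± 0.20) were lower without overlap as well.

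*Trpm7* was higher below the gate. Its 10 libraries read 38.9 to 131 CPM (median 91.4) against 33.1 to 49.7 in proprioceptor-like wells, overlapping in library 10 alone, which held 12 such wells. The difference was 0.92 ± 0.13 log2 units (adjusted p = 7.25e-07). *Trpv4* gave 65 UMIs there and *Trpa1* 21, with 18 of the *Trpa1* UMIs in libraries 3 and 4. *Trpv4* was higher than in proprioceptor-like wells by 3.20 ± 0.56 log2 units (edgeR, adjusted p = 1.78e-05). *Trpa1* was higher by 3.83 ± 0.90 log2 units (edgeR, adjusted p = 0.000598), but proprioceptor-like wells held only 2 of its UMIs, in library 6. It reached the minimum of 10 UMIs only through the wells below the gate, so its call is no independent support for a difference. Both groups of libraries overlapped, since *Trpv4* was at 0 in libraries 8, 9 and 10 and *Trpa1* in 5 of the 10.

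*Trpm3* did not differ beyond the spread, at 12.3 ± 7.78 CPM below the gate and 12.2 ± 3.78 CPM in proprioceptor-like wells (SD), -0.10 ± 0.28 log2 units. Its sign turned with DESeq2 size factors, and without wells holding glial transcripts it was lower below the gate (-0.73, adjusted p = 0.0496). *Trpm8* gave 0 UMIs among 12485615 below the gate. The summed glial markers were 442 CPM in wells below the gate (82.1 to 2868 over libraries) and 325 CPM in proprioceptor-like wells. Without the wells holding glial transcripts *Trpv2* (-3.90 log2 units), *Trpm2* (-3.88), *Trpc1* (-1.86), *Trpm7* (1.00) and *Trpv4* (3.43) still passed, and *Trpv1* did not (-1.08, adjusted p = 0.114), while *Trpa1* was too rare for that fit.

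Among 18 further genes of the family, 11 could be tested between the ages and 5 passed, where 51.2% of all genes did. *Trpc5* and *Trpm4* rose by 2.58 ± 0.38 and 1.28 ± 0.20 log2 units from e15.5 to p1, and *Trpc4*, *Mcoln1* and *Mcoln3* fell (-1.73 ± 0.48, -0.58 ± 0.12, and 23 UMIs to 0). In nociceptor-like wells 3 of 12 passed (15.6% of all genes), and *Trpc4*, *Trpc7* and *Pkd2* were higher there by 1.90, 3.91 and 0.95 log2 units. In mechanoreceptor-like wells 1 of 12 passed (12.1% of all genes), *Trpm5*, which was higher on 5 UMIs. Proprioceptor-like wells alone held too few *Trpm5* UMIs for a test, so this call is no independent support for a difference.

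Below the gate 6 of the 12 further genes tested passed, where 64.6% of all genes did. *Pkd2*, the polycystin channel of cilia and the endoplasmic reticulum, averaged 115 CPM there against 11.7 in proprioceptor-like wells, and *Trpm5*, *Trpm4* and *Pkd2l1* were also higher. *Trpc4* and *Mcoln1* were lower.

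The genes most like each member were taken by Pearson's r of log2(CPM + 1) over the 26 sums of a library, age and class with at least 3 wells. Only proprioceptor-, nociceptor- and mechanoreceptor-like wells entered these sums. The sums share libraries and differ in depth, so r is a description. For *Trpv1* the nociceptor-like sums, 44.6 to 154 CPM, lie far above all others, so its r depends largely on them. For *Trpv1* the nearest were *Cntn2* (0.912), *Gm43508* (0.899) and *Gm42981* (0.890), and for *Trpm3* *Amd-ps3* (0.880), *Ebag9* (0.851) and *Rnf168* (0.845). The leading gene was *Csmd2* for *Trpv2* (0.817), *Pcdhb21* for *Trpm2* (0.726), *Pcnx* for *Trpm7* (0.823) and *Gdap1* for *Trpc1* (0.826). *Trpv4*, *Trpa1* and *Trpm8* held too few UMIs for this.

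The sources used here do not say whether the counting used strand, so reads of genes on the opposite strand within a member could not be told from its own. *Gm27151*, antisense to *Trpm3*, gave 22 UMIs at e15.5 and 44 at p1 in proprioceptor-like wells, against 440 and 742 of *Trpm3*. The pseudogene *Gm14212* within *Trpm7* gave 5 and 22.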

How the data were processed

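CEL-Seq2 libraries of single DRG cells numbered 10 at e15.5 and 6 at p1. The authors demultiplexed, mapped and counted reads with scruff, and the deposited values are UMI counts per gene and well, unfiltered and whole, with unequal totals. The submitters' processing notes name mm10 and GRCm38; the annotation counted on: not given in the sources used here. Symbols and places came from GENCODE M21, and 259 of 49671 IDs had none. No well repeated another.

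Members, lists and class thresholds were chosen with earlier results of these data known. Besides the proprioceptor limit, nociceptor-like wells had at least 400 CPM of 5 nociceptor markers (at least 3 found) and mechanoreceptor-like wells at least 400 CPM of *Ntrk2*, *Maf*, *Ret* and *Mafa*, each exceeding the other sum and with at least 2000 CPM of 5 sensory neuron genes. Proprioceptor-like wells had at least 3 of 4 markers and less than 400 CPM of nociceptor markers. Doublets were not removed; mixed wells were kept apart. Some genes are not reported here.

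Counts were summed per library and class (at least 5 wells between ages, otherwise 3) and tested with edgeR (version 4.0.16) in R (version 4.3.3): at least 10 UMIs over the sums, TMM, robust quasi-likelihood F test, Benjamini-Hochberg adjustment over all genes tested, threshold 0.05. The step was tested on simulated data. DESeq2 (version 1.42.0) was an alternative. All 9 members are named, other TRP genes where called, and the 3 most alike genes by r. Class sums taken from the same library are pairs: over 2000 genes, deviations of its class sums had a median r of 0.245 (lowest 0.0655), against -0.0339 between libraries, and 0.304 and 0.267 for muscle types at e15.5 and p1. The main fits held no library term and so did not use this pairing. Fits with the library as a block, which do use it, are given as alternatives. Library numbers of the 2 ages share only a number. Python (version 3.11.15), NumPy (version 2.4.6), pandas (version 2.3.3), SciPy (version 1.17.1) and Matplotlib (version 3.10.9) served the rest. Intervals and the 3-count limit cover counting error only.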

Additional observations from a re-analysis of the deposited data

Results flagged for a closer look

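The values of a member in 40 groups of 4 to 10 libraries were searched for a library standing far from the others by Dixon's criterion, and 7 groups met it. For normally distributed values chance meets it in about 1 of 20 groups, a rate that does not hold for sparse counts. Where 1 library alone holds UMIs, as for the *Trpv4*, *Trpm8* and *Trpa1* flags, it is always met, so the 7 cannot be set against that rate. In 5 of them the flagged value rests on 1 or 2 UMIs. These are *Trpv1* at 6.003 CPM in the mechanoreceptor-like wells of e15.5 library 1 (2 UMIs), *Trpv4* and *Trpm8* at 1.03 CPM each in the nociceptor-like wells of e15.5 library 3 (1 UMI each), *Trpa1* at 1.30 CPM in the proprioceptor-like wells of e15.5 library 6 (2 UMIs), and *Trpa1* at 0.245 CPM in those of p1 library 5 (1 UMI). The other 2 are from p1 library 3, the shallowest library: its proprioceptor-like wells read 73.7 CPM of *Trpm7* on 13 UMIs, where the next library reads 40.9, and 119 CPM of *Trpc1* on 21 UMIs, where the next reads 77.6.

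The 6 mixed wells at e15.5, which were over both the proprioceptor and the nociceptor threshold and entered no comparison, held 96 *Trpv1* UMIs or 58.4 CPM. *Trpv1* was found in 5 of the 6, each with at least 5 UMIs, and the highest well held 42. They also held a median of 523 CPM of glial markers, against 19.4 in proprioceptor-like wells, at a median depth of 222414 UMIs.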

How the results depend on the processing

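Of the member differences that had passed the test, 269 alternative values kept the call, 22 lost it and 0 turned direction. Depth is 1 limit: *Trpv1* held 91 UMIs at e15.5 and 8 at p1 in proprioceptor-like wells, p1 library 3 is thin, and changes of *Trpv4*, *Trpm8* and *Trpa1* were not detectable at this depth between neuron classes. Only 23 nociceptor-like wells, in the 4 libraries with at least 3, carry their comparison. *Trpv1* was too rare for a test between ages under edgeR's filterByExpr. The cause was not tested for any value below, except that thinning and filterByExpr leave fewer genes or UMIs to test.

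Thinning every well to 10000 UMIs left 6310 genes called between ages, with 2 members, 1013 for nociceptor-like wells, 657 for mechanoreceptor-like wells, 164 for muscle type at e15.5, with 0 members, 84 at p1 and 8873 below the gate. Shares of wells with *Trpv1* became 1.82% thinned and 3.65% with at least 2 UMIs at e15.5, and 0.571% and 0.286% at p1. Sums of more wells gave 870 genes for mechanoreceptor-like wells. For muscle type at e15.5, DESeq2, no filter beyond 1 UMI (*Trpm8* passing) and the block each called 2 members, against 1. At p1 it gave 111 genes with DESeq2, 61 with filterByExpr and 438 without a filter, where 1 member passed (*Trpv4*), against 186. filterByExpr gave 8899 genes and 4 members below the gate, against 13649 and 7. The nociceptor marker difference of *Trpv1* wells was -14.6 CPM with at least 2 UMIs and -1.13 without *Tac1*. With mixed wells included it turned to 109 CPM, or 147 CPM without *Tac1*. The settings on *Tac1* and mixed wells were added after the values were seen.

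With the library as a replicate block, 3988 and 4269 genes were higher and lower between ages, where numbers are only shared (median r -0.219) and the block gave *Trpm7* 0.082 log2 units against -0.0030. In mechanoreceptor-like wells the block gave *Trpv2* -0.064 and *Trpc1* -0.055, and for muscle type at e15.5 *Trpm7* -0.0048 and *Trpc1* 0.043. Apart from *Trpv1* by muscle type, *Trpm2* between ages and *Trpv1* below the gate (-1.19), the block changed no call of a member.

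Among the 6 members with the most UMIs, differences that had not passed turned sign as follows; *Trpv4* and *Trpm8*, on few UMIs, turned sign in 24 of 82 and 13 of 91 alternative values that had not passed. Between ages, *Trpv2* was 0.18 thinned, and *Trpm7* 0.072 with DESeq2, 0.088 with its size factors, 0.093 with filterByExpr and 0.080 thinned. Thinned nociceptor-like wells gave *Trpv2* 0.20 and *Trpm7* -0.34, thinned mechanoreceptor-like wells *Trpv1* 0.64, *Trpm2* -0.11 and *Trpm7* 0.21, and sums of more wells *Trpv2* -0.019. By muscle type at e15.5, *Trpm2* was 2.34 thinned, and *Trpm7* -0.10 without glial wells, -0.17 thinned and -0.025 at 50 CPM of the markers. At p1, *Trpv2* was 0.067 without glial wells and *Trpm2* 0.58 thinned. Below the gate, *Trpm3* was 0.064 with DESeq2, 0.056 with its size factors, 0.10 with filterByExpr and 0.29 thinned.

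Leaving out each library in turn gave 10169 to 11082 genes and 3 to 4 members between ages, 2305 to 3132 genes and 1 to 3 members for nociceptor-like wells, 1721 to 2411 genes and 0 members for mechanoreceptor-like wells, 274 to 614 genes and 0 to 1 member by muscle type at e15.5, 59 to 310 genes and 0 members at p1, 12939 to 13274 genes and 6 to 7 members below the gate, and -73.3 to -43.4 CPM for *Trpv1* wells. Differences whose sign turned ran from -0.058 to 0.049 for *Trpm7* between ages, -0.057 to 0.46, -0.42 to 0.021 and -0.10 to 0.19 for *Trpm2*, *Trpm7* and *Trpc1* in mechanoreceptor-like wells, -0.089 to 0.14 for *Trpm7* by muscle type at e15.5, -0.39 to 0.089 for *Trpm3* at p1 and -0.26 to 0.16 for *Trpm3* below the gate.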

Other observations

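The 5 mixed wells at p1 held 4 *Trpv1* UMIs in 3 wells (6.32 CPM), and the single nociceptor-like well and the 7 mechanoreceptor-like wells at that age held none. *Trpm3* was found in all 7 mechanoreceptor-like wells at p1, with 24 UMIs or 51.3 CPM, and in all 6 mixed wells at e15.5, with 29 UMIs or 17.6 CPM. The 49 unnamed e15.5 wells held 4 *Trpv1* UMIs.

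*Tac1* ran in opposite order to *Trpv1* between the muscle types at e15.5, where it read 140 CPM in *Tox*-only and 197 CPM in *Gabrg1*-only wells, against 28.2 and 152 CPM at p1, values for which no test was made here.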
